A study of Mus musculus with 6 samples.

Results

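The 10 genes described here encode semaphorins and plexins, a family of guidance ligands and their receptors. They are the semaphorin genes Sema7a, Sema4a, Sema4b, Sema4c, Sema4d, Sema4g and Sema6a and the plexin genes Plxna1, Plxnb1 and Plxnb2. They were chosen by their CPM and log2 fold changes in these libraries, out of 53379 genes in the deposited files, because Sema7a was among the largest falls in the libraries labelled Klf5-KO. Their values in that contrast are given as a description, with no p-value. All 10 passed the filter on low counts, which left 19339 genes in all.

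RNA was sequenced from intestinal stem cells of adult C57BL/6 mice, taken from the proximal small intestine by sorting for high Lgr5-EGFP reporter signal. Lgr5 marks the cycling stem cells of the crypt base. The 3 Klf5-KO libraries came from mice that carried Klf5fl/fl together with Lgr5-EGFP-IRES-CreERT2 and Rosa-tdTomato. The 3 control libraries came from mice with the last 2 alleles alone. Both groups were given tamoxifen, 1 mg daily in corn oil, for 5 days. All mice thus carried the Cre, which is expressed from the Lgr5 locus, so recombination is limited to cells that express it. Beyond adult, the labels give neither an age nor the time from tamoxifen to sorting, and nothing in them ties the replicates to separate mice, so spreads and p-values are those between these libraries. In bulk RNA, fewer cells of a type and less RNA per cell cannot be told apart.

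Semaphorins carry an extracellular sema domain and are secreted, membrane-spanning or, for Sema7a, held by a glycolipid anchor. Plexins are their main receptors. When a ligand binds, the cytoplasmic part of a plexin acts on small GTPases and so changes the actin cytoskeleton and integrin adhesion. Class 4 semaphorins signal mainly through class B plexins, class 6 semaphorins bind class A plexins directly, and most class 3 semaphorins need neuropilin co-receptors. The family is best known from axon guidance, and it also acts in immune cells, blood vessels and epithelia.

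The targeted gene, Klf5, a zinc finger transcription factor, went against the labels. It had 60238, 58956 and 63492 counts in Klf5-KO replicates 1, 2 and 3, against 34951, 39455 and 33862 counts in control replicates 1, 2 and 3. A count over the whole gene cannot tell deleted from kept exons, and which exons were deleted is not stated in the labels. Higher and lower below therefore describe libraries labelled Klf5-KO, set against the controls. Depth was 66431695 to 72240451 counts in the Klf5-KO libraries and 61563625 to 77666540 counts in the controls. Of 10 stem cell markers, 8 were lower and none higher in the Klf5-KO libraries at an adjusted p under 0.05 (edgeR's quasi-likelihood test), and Lgr5 itself stood at 87.6 ± 8.2 CPM in the Klf5-KO libraries and 141 ± 19.2 CPM in the controls (SD, n = 3 each). CPM is the count scaled by the size of its library. Control replicate 3 stood apart from the other libraries in Paneth cell transcripts, which summed to 16687 CPM over 6 markers, against 1448 and 1722 CPM in control replicates 1 and 2 and 7603 to 9574 CPM in the Klf5-KO libraries. Goblet markers summed to 1172 to 1521 CPM over 7 genes in the Klf5-KO libraries and 2393 to 2667 CPM in the controls (3 lower), enteroendocrine markers to 80.1 to 89.4 CPM over 8 genes in the Klf5-KO libraries and 141 to 289 CPM in the controls (6 lower), and tuft markers to 123 to 224 CPM over 8 genes in the Klf5-KO libraries and 87.0 to 110 CPM in the controls (4 of 7 tested higher). The part of these cell types in the results below was not tested.

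Sema7a encodes a glycolipid-anchored semaphorin that binds the integrin made of the Itga1 and Itgb1 chains and the plexin Plxnc1 (mm10 chromosome 9, 57940112 to 57962865, plus strand, 14 exon blocks). It stood at 8.63, 6.34 and 9.81 CPM in Klf5-KO replicates 1, 2 and 3, against 67.1, 103.7 and 73.3 CPM in control replicates 1, 2 and 3. The highest Klf5-KO library thus lay far below the lowest control, and within each group the libraries differed much less than the groups did. The underlying counts were 591, 407 and 710 in the Klf5-KO libraries and 4883, 7997 and 4539 in the controls. The means of 8.26 ± 1.76 CPM in the Klf5-KO libraries and 81.4 ± 19.6 CPM in the controls (SD, n = 3 each) gave a log2 fold change of −3.30 (SE 0.21), or 9.84-fold lower in the Klf5-KO libraries. Among the 10096 genes that have a regular symbol and average 5 CPM or more, only Sfrp5 and Prelp had a larger fall (rank 3). The gene next to Sema7a among these, on the smaller side, was Cyp2e1, with a log2 fold change of −3.21. Over all 19339 tested genes, scarce ones included, Sema7a had rank 35.

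**Figure D1:**
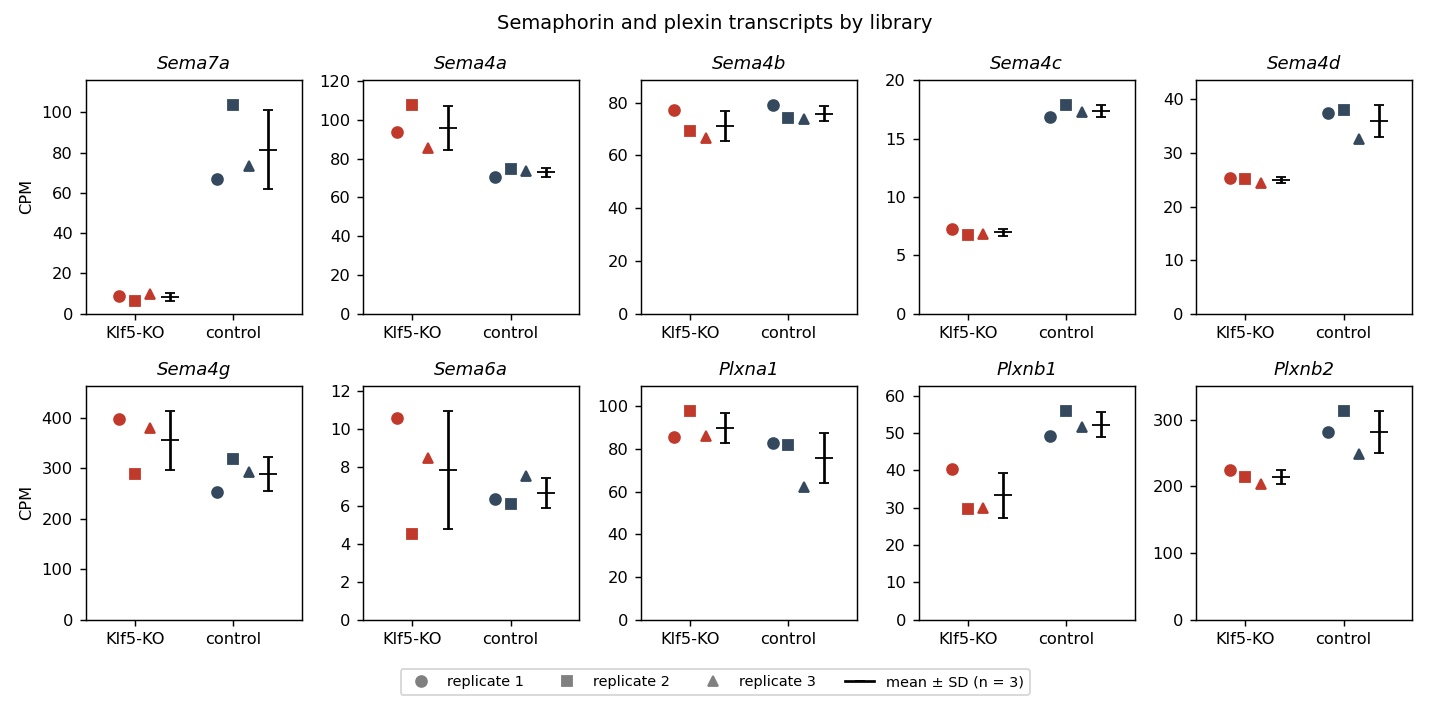
Level of each of the 10 genes in CPM, by library, with the Klf5-KO libraries left of the controls. Symbols are replicates, bars are the mean ± SD of 3 libraries, and every axis starts at 0. The groups lie farthest apart for Sema7a (means of 8.26 CPM in the Klf5-KO libraries and 81.4 CPM in the controls), and they overlap for Sema4b, Sema4g and Sema6a.

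The sequence before the start of Sema7a is shown with those of Sema4c, the next largest fall among the 10, and Sema4a, which was higher in the Klf5-KO libraries, because factors of the Klf5 family are known to bind CACCC boxes and GC boxes. The windows are the 250 bases before the RefSeq start on GRCm38.p6, 5′ to 3′ on the gene's strand, at chr9:57939862-57940111 (plus strand), chr1:36558382-36558631 (minus strand) and chr3:88461183-88461432 (minus strand). Capitals mark CCACCC or its reverse complement GGGTGG and CCGCCC or its reverse complement GGGCGG, which can overlap each other.
Sema7a: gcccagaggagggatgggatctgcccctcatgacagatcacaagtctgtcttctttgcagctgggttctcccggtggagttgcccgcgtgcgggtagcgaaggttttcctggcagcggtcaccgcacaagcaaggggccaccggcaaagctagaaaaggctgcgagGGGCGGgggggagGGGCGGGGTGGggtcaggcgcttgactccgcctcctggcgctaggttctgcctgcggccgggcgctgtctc
Sema4c: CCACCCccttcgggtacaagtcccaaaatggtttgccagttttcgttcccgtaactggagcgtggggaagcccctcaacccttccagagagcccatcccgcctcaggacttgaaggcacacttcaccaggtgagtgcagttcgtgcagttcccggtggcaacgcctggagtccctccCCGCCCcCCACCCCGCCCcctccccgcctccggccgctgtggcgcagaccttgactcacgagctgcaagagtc
Sema4a: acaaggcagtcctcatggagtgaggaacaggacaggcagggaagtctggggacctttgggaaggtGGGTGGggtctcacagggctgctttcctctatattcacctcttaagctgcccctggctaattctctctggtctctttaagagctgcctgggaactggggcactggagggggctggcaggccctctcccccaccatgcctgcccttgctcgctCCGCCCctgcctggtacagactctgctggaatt
The Sema7a window holds 1 CCACCC match and 2 CCGCCC matches, on the strand that reads GGGTGG and GGGCGG, with 1 of each overlapping. Sema4c has 2 of each, and Sema4a has 1 of each. Of 32851 promoter windows of this length, 28.1% hold CCACCC and 32.7% hold CCGCCC on either strand. Among the 8 of the 10 genes with a window in the table, 7 hold CCACCC and 7 hold CCGCCC. Their windows were 52.0 to 75.2% G and C, against a median of 52.4% over all windows, and both motifs are rich in G and C. Of the other semaphorin, plexin and neuropilin genes, 18 have a window, and 10 of these hold CCACCC and 13 hold CCGCCC. Sema4b has no CCACCC match and Sema4d no CCGCCC match. Where a gene has several RefSeq starts, only the window nearest to its start in the annotation used for counting was read. That window began far from this start for Sema4d (37064 bases) and Plxnb2 (2831 bases). A match is a description and not a binding site.

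Genes beside Sema7a were taken by position, 2 tested genes on each side. Ubl7, which lies 10.1 kb before it, stood at 18.5, 17.5 and 19.7 CPM in the Klf5-KO libraries and 20.6, 21.8 and 22.8 CPM in the controls (log2 fold change −0.23, adjusted p = 0.11, edgeR), and for Arid3b, 103 kb before it, the log2 fold change was 0.10 (adjusted p = 0.65, edgeR). On the other side, Gm17322, at 35.2 kb, and Cyp11a1, which encodes the enzyme that starts steroid synthesis, at 43.5 kb, were lower in the Klf5-KO libraries, with log2 fold changes of −2.53 (adjusted p = 3.7e-04, edgeR) and −2.29 (adjusted p = 0.022, edgeR). Cyp11a1 was scarce, at 10, 3 and 1 counts in the Klf5-KO libraries and 21, 33 and 19 counts in the controls. Gm17322 was also scarce, at 0.45 ± 0.03 CPM in the Klf5-KO libraries and 2.61 ± 0.82 CPM in the controls (SD, n = 3 each). It overlaps Cyp11a1 in position on the same strand, so the 2 falls may not be separate. On the other side no gene was called, though Ubl7 was lower in every Klf5-KO library than in any control.

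The genes whose pattern over the 6 libraries lay nearest to that of Sema7a were Dmpk, Kcne3, Sorcs2, Angpt2 and Hpse. Dmpk encodes a protein kinase, Kcne3 a potassium channel subunit that acts in intestinal chloride secretion, Sorcs2 a sorting receptor, Angpt2 an angiopoietin and Hpse heparanase. Their centred log2 CPM profiles differed from that of Sema7a by a root mean square of 0.26 to 0.28, with Pearson's r of 0.99 for each over 6 libraries, which fall into 2 groups, so that r mostly restates the group difference. Dmpk stood at 8.50, 8.49 and 9.92 CPM in the Klf5-KO libraries and 66.3, 74.8 and 64.9 CPM in the controls. Sema7a stood lower than Dmpk in Klf5-KO replicate 2, at 6.34 CPM, and higher in control replicate 2, at 103.7 CPM. Kcne3 was more abundant, at 22.2 to 32.6 CPM in the Klf5-KO libraries and 185 to 234 CPM in the controls. Neither of these genes lies on the chromosome of Sema7a; both are on chromosome 7.

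Class 4 semaphorins are membrane-spanning ligands, and the 5 among the 10 genes did not move together. Sema4c, a ligand of Plxnb2, was lower in the Klf5-KO libraries (chromosome 1, 36548639 to 36558349, minus strand). It stood at 7.29, 6.78 and 6.84 CPM in Klf5-KO replicates 1, 2 and 3, against 16.8, 17.9 and 17.3 CPM in control replicates 1, 2 and 3. The libraries of each group lay close together, with a coefficient of variation of 4.02% in the Klf5-KO libraries and 3.06% in the controls. The log2 fold change was −1.32 (SE 0.10), or 2.49-fold lower.

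Sema4d, the ligand of Plxnb1, also known as CD100 on lymphocytes, was lower as well (chromosome 13, 51701246 to 51793747, minus strand). It stood at 25.4, 25.2 and 24.3 CPM in the Klf5-KO libraries, against 37.5, 37.9 and 32.6 CPM in the controls, and the groups did not overlap. The log2 fold change was −0.53 (SE 0.09). As Sema4d and Sema7a are also made by immune cells, 12 immune markers were read beside them. Their summed level was 29.2 to 30.9 CPM in the Klf5-KO libraries and 24.5 to 44.8 CPM in the controls, of which Cd68 made up most, and 1 of 10 tested markers, Cd4, was lower. The pan-leukocyte marker Ptprc stood at 2.82 to 3.87 CPM in the Klf5-KO libraries and 1.15 to 2.79 CPM in the controls. Control replicate 2 had the highest Sema7a level and the lowest immune sum of the 3 controls, while its Sema4d level was close to that of control replicate 1. The part of immune cells in these levels was not tested.

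Sema4a, which binds class B plexins and, in mice, the immune receptor Tim-2, was higher in the Klf5-KO libraries (chromosome 3, 88435959 to 88461182, minus strand). It stood at 93.8, 107.8 and 85.5 CPM there, against 70.5, 74.8 and 73.6 CPM in the controls, so that the groups did not overlap. The log2 fold change of 0.39 (SE 0.10) was small, at 1.31-fold. The Tim-2 gene, Timd2, had 0 counts in every library, which allows at most 0.0389 to 0.0484 CPM (3 counts, counting error only). Sema4a shares 73 of its 5406 exon bases with Mir7011 on the same strand, and reads there could go uncounted.

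Sema4g, a further ligand of Plxnb2, was the most abundant of the 10 genes (chromosome 19, 44989101 to 45003397, plus strand). It stood at 397, 289 and 380 CPM in Klf5-KO replicates 1, 2 and 3, against 252, 318 and 293 CPM in control replicates 1, 2 and 3. The groups overlapped, since Klf5-KO replicate 2 lay below the upper 2 controls, and the log2 fold change was 0.30 (SE 0.14). Klf5-KO replicate 2 also had the lowest summed level of 8 enterocyte markers among the Klf5-KO libraries. The sum was 1341 CPM there, against 2347 and 1867 CPM in replicates 1 and 3. Control replicates 1, 2 and 3 had 864, 702 and 998 CPM. The enterocyte sums thus did not overlap between the groups, and 4 of the 8 markers were higher and none lower in the Klf5-KO libraries (adjusted p under 0.05, edgeR). Among the controls, replicate 2 thus had the highest Sema4g level and the lowest enterocyte sum. The part of these markers in the Sema4g level was not tested. Sema4b, a ligand with a PDZ-binding tail (chromosome 7, 80186841 to 80226527, plus strand), was close between groups, at 77.4, 69.2 and 66.7 CPM in the Klf5-KO libraries and 79.2, 74.4 and 74.0 CPM in the controls (log2 fold change −0.09, SE 0.09).

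Sema6a, a membrane-spanning ligand of Plxna2 and Plxna4, was the least even of the 10 genes within the Klf5-KO libraries (chromosome 18, 47235598 to 47368870, minus strand). It stood at 10.6, 4.49 and 8.48 CPM in Klf5-KO replicates 1, 2 and 3, against 6.36, 6.06 and 7.54 CPM in control replicates 1, 2 and 3. Klf5-KO replicate 2 was the lowest of all 6 libraries and Klf5-KO replicate 1 the highest. The coefficient of variation was 39.5% in the Klf5-KO libraries and 11.8% in the controls, where Sema7a varied most, at 24.1%, and the log2 fold change of 0.24 was smaller than its SE of 0.27.

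Of the 3 receptor genes, the 2 of class B were lower in the Klf5-KO libraries. Plxnb2, the receptor of Sema4c and Sema4g (chromosome 15, 89155549 to 89171120, minus strand), stood at 224, 214 and 203 CPM in the Klf5-KO libraries, against 282, 313 and 249 CPM in the controls. The groups did not overlap, with a log2 fold change of −0.40 (SE 0.10). Plxnb1, the receptor of Sema4d, lies on chromosome 9 (109095389 to 109119917, plus strand), as Sema7a does, but far from it. It stood at 40.3, 29.6 and 30.0 CPM in the Klf5-KO libraries, against 49.3, 55.9 and 51.5 CPM in the controls, also with no overlap (log2 fold change −0.65, SE 0.13). Plxna1, which joins neuropilins in receptors for class 3 semaphorins and binds Sema6d directly, pointed the other way (chromosome 6, 89316314 to 89362620, minus strand). It stood at 85.4, 97.7 and 85.8 CPM in the Klf5-KO libraries, against 82.8, 81.9 and 62.2 CPM in the controls. The groups did not overlap, by a narrow margin, with control replicate 3 lowest, and the log2 fold change was 0.24 (SE 0.12). Without control replicate 3 it was 0.12 (SE 0.08).

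Over the 10 genes, 1 was higher (Sema4a) and 5 were lower (Sema7a, Sema4c, Sema4d, Plxnb1 and Plxnb2) at an adjusted p under 0.05 in the edgeR fit over all genes, where 13.3% of tested genes were higher and 12.5% lower. Groups did not overlap for 2 genes that were higher and 5 that were lower, where 22.2% and 21% of all tested genes did so, or 43.2% in either direction. The median log2 fold change of the 10 was −0.24, against −0.01 over all tested genes. Since the genes were chosen with these results known, the counts describe the fit, are no test of the genes, and nothing is read from them. As part of that description, Sema4a fell short of the threshold without control replicate 1 (log2 fold change 0.37). Plxnb2 did so when replicate 2 or 3 of the Klf5-KO libraries was left out (−0.38 and −0.36) and without control replicate 2 (−0.31), while Sema4g reached it without Klf5-KO replicate 2 (0.45).

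Levels of different genes were compared per length, as CPM per kilobase of exon. In the Klf5-KO libraries the order was Sema4g (72.9), Plxnb2 (30.0), Sema4a (17.7), Sema4b (12.6), Plxna1 (9.90), Sema4d (3.87), Plxnb1 (3.47), Sema7a (2.504), Sema4c (1.52) and Sema6a (0.90). In the controls it was Sema4g (59.1), Plxnb2 (39.5), Sema7a (24.7), Sema4a (13.5), Sema4b (13.4), Plxna1 (8.35), Sema4d (5.59), Plxnb1 (5.45), Sema4c (3.78) and Sema6a (0.76). Over all 20 semaphorin and 9 plexin genes, Sema7a therefore had rank 13 in the Klf5-KO libraries and rank 3 in the controls. In the controls its lowest library, at 20.3, lay above the highest of Sema4a, at 13.8, whereas Sema4a and Sema4b did not differ beyond their spread, nor did Sema4d and Plxnb1. In the Klf5-KO libraries Sema4a, at 15.8 to 19.9, lay above Sema4b, at 11.8 to 13.7, and Sema4d and Plxnb1 again overlapped.

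**Figure D2:**
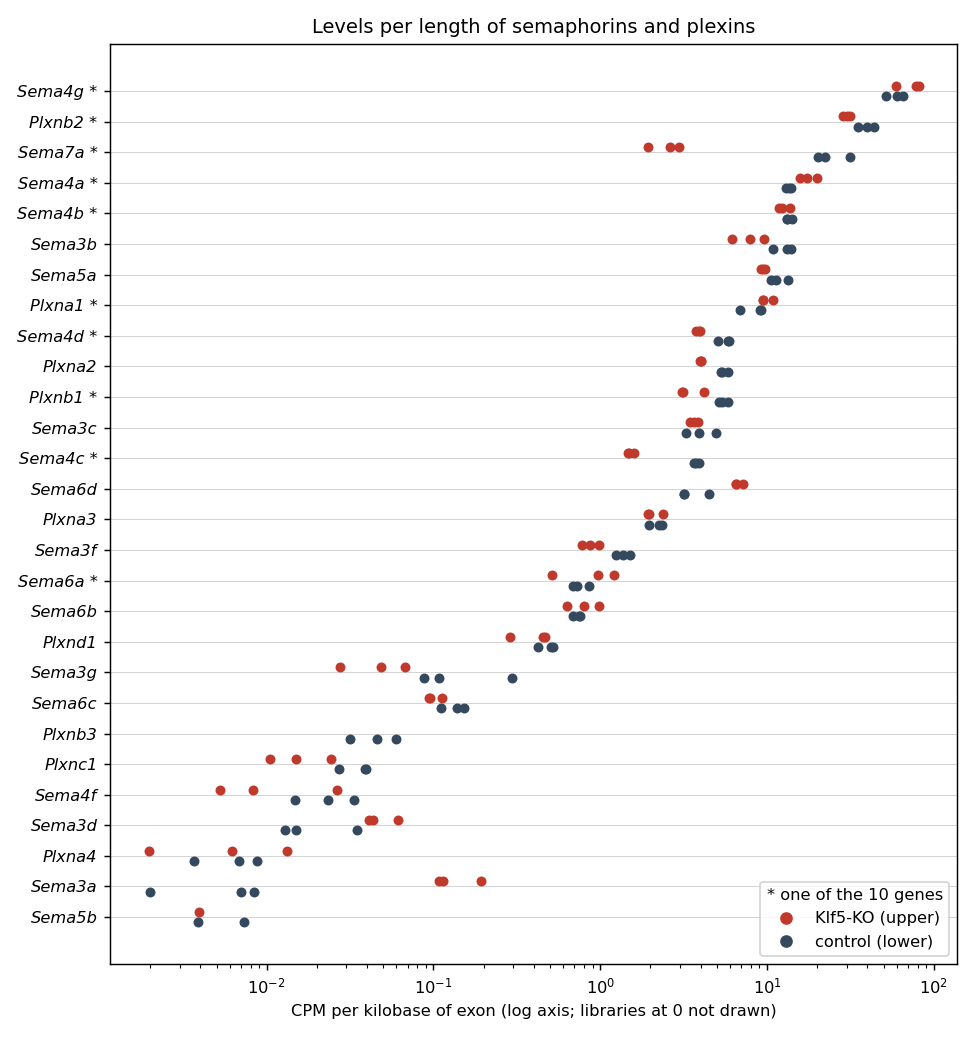
Level per length of semaphorin and plexin genes, in CPM per kilobase of exon on a log axis, 1 point per library, with Klf5-KO points above control points and the genes ordered by their control mean. Asterisks mark the 10 genes; Sema7a lies at 2.504 in the Klf5-KO libraries, against 24.7 in the controls, where it has rank 3. Libraries at 0 and Sema3e, with no counts, are not drawn.

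The summed semaphorin level changed less than its make-up did. Over 20 semaphorin genes it was 154, 127 and 144 CPM per kilobase in Klf5-KO replicates 1, 2 and 3, against 142, 172 and 152 in control replicates 1, 2 and 3, and the groups overlapped. Sema7a made up 1.701, 1.51 and 2.06% of that sum in the Klf5-KO libraries, against 14.3, 18.3 and 14.6% in the controls. Sema4g made up 46.7 to 54.0% in the Klf5-KO libraries and 36.4 to 39.6% in the controls. A share rises when another falls, and the sum without Sema7a was 139 ± 13.3 CPM per kilobase in the Klf5-KO libraries and 131 ± 9.6 in the controls (SD, n = 3 each). The 9 plexin genes together gave 52.0, 50.2 and 47.5 CPM per kilobase in the Klf5-KO libraries, against 62.3, 66.9 and 55.6 in the controls, with no overlap. Plxnb2 held 59.8 to 60.6% of the plexin sum in the Klf5-KO libraries and 63.0 to 65.7% in the controls, so the receptor of Sema4g was the main plexin transcript in every library.

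**Figure D3:**
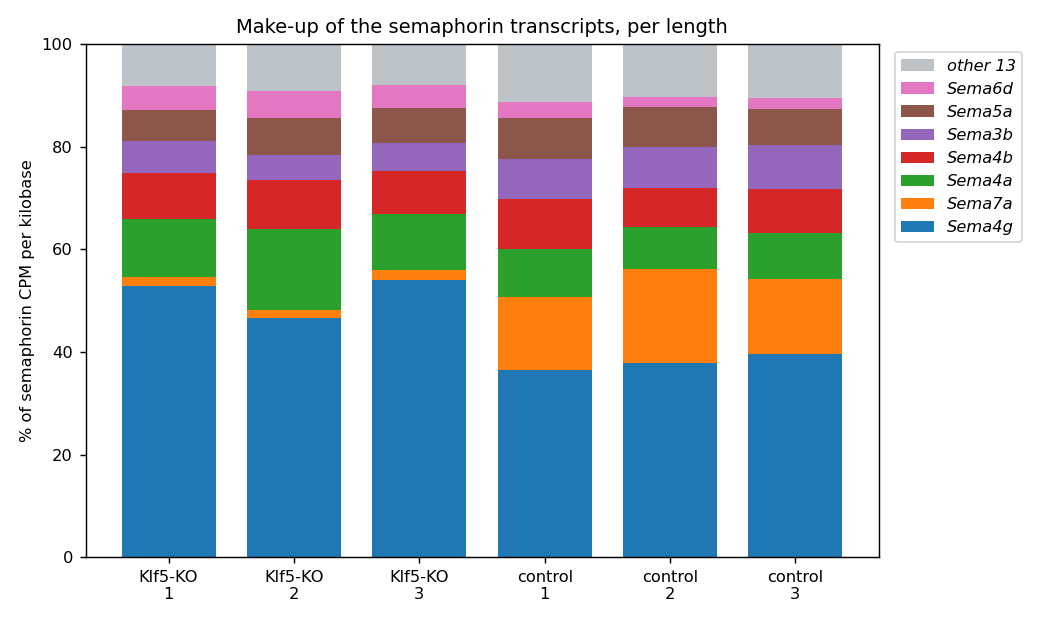
Share of semaphorins in the summed CPM per kilobase of 20 semaphorin genes, in percent, by library, with the Klf5-KO libraries left of the controls. Sema4g, Sema7a, Sema4a, Sema4b, Sema3b, Sema5a and Sema6d have their own bands, and the others are drawn together. The Sema7a band narrows to at most 2.06% in the Klf5-KO libraries, against 14.3 to 18.3% in the controls.

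The pattern nearest to that of Plxnb2 was that of Itga6, the integrin alpha chain of hemidesmosomes, with a root mean square difference of 0.02 in centred log2 CPM over 6 libraries. Itga6 stood at 363, 352 and 326 CPM in the Klf5-KO libraries, against 464, 503 and 411 CPM in the controls. The next were Sept8, a septin gene, and Snrnp200, a splicing helicase gene, each with a difference of 0.03. For each of the 3 genes and for Plxnb2, control replicate 2 was highest and control replicate 3 lowest among the controls. The 3 genes were picked for their nearness over these same libraries, so the shared order comes with that choice.

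The rest of the family holds 13 semaphorin genes, 6 plexin genes and the 2 neuropilin genes, of which 17 passed the filter. Of these 17, 3 were higher and 6 lower in the Klf5-KO libraries at an adjusted p under 0.05 (edgeR), with a median log2 fold change of −0.27, where 13.3% of all tested genes were higher and 12.5% lower. Sema3a, a secreted ligand that repels growing axons through neuropilin and Plxna1, was higher. It had 108, 171 and 108 counts in the Klf5-KO libraries, against 2, 9 and 6 counts in the controls, which are 1.91 ± 0.65 and 0.08 ± 0.05 CPM (SD, n = 3 each; log2 fold change 4.54, SE 0.45, adjusted p = 1.7e-04, edgeR). It was thus close to absent in the controls and remained scarce in the Klf5-KO libraries. Its co-receptor gene Nrp1 was higher as well, at 14.2, 11.7 and 13.9 CPM in the Klf5-KO libraries against 5.21, 7.04 and 5.63 CPM in the controls (log2 fold change 1.15, SE 0.15, adjusted p = 7.3e-04, edgeR). Sema6d, a membrane-spanning ligand of Plxna1, stood at 75.4, 68.6 and 68.6 CPM in the Klf5-KO libraries, against 47.5, 33.4 and 33.7 CPM in the controls (log2 fold change 0.89, SE 0.14, adjusted p = 0.0018, edgeR). These 3 were the genes called higher.

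Among the 6 called lower, Plxna2, a receptor of class 6 semaphorins, stood at 68.6 ± 0.84 CPM in the Klf5-KO libraries and 94.9 ± 5.1 CPM in the controls (log2 fold change −0.47, adjusted p = 0.0028, edgeR). The secreted ligands Sema3b and Sema3f had log2 fold changes of −0.68 (adjusted p = 0.013, edgeR) and −0.65 (adjusted p = 0.014, edgeR). Sema3f did not pass without Klf5-KO replicate 2 (adjusted p = 0.0501) or replicate 3 (0.0505). Sema5a, a ligand with thrombospondin repeats, stood at 177 ± 5.8 CPM in the Klf5-KO libraries and 220 ± 27.9 CPM in the controls, and its adjusted p of 0.0493 (edgeR) lay at the threshold and was lost without any 1 library other than control replicate 3 (0.079 to 0.15). Plxnb3, a receptor of Sema5a, had 0 counts in every Klf5-KO library and 15, 23 and 24 counts in the controls (adjusted p = 0.0016, edgeR), so it was at least 6.36-fold lower, taking the highest floor of 3 counts per Klf5-KO library. Sema3g was scarce, at 21, 8 and 16 counts in the Klf5-KO libraries and 29, 38 and 83 in the controls (log2 fold change −1.74, adjusted p = 0.038, edgeR), and without control replicate 3 the value was −1.03 (adjusted p = 0.11, edgeR). Its call was also lost without any 1 of the Klf5-KO libraries (adjusted p = 0.065 to 0.12).

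The others did not pass. Sema3c, Sema6b, Plxna3 and Plxnd1, the last a receptor known from blood vessels, had log2 fold changes of −0.14, 0.14, −0.06 and −0.27 (adjusted p = 0.50, 0.64, 0.74 and 0.39, edgeR). Nrp2, the second neuropilin gene, stood at 3.58, 2.46 and 2.71 CPM in the Klf5-KO libraries, against 0.84, 1.04 and 3.02 CPM in the controls (log2 fold change 0.85, adjusted p = 0.18, edgeR). Control replicate 3 was the one control within the Klf5-KO range, and without it Nrp2 passed (log2 fold change 1.63, adjusted p = 0.0026, edgeR). Plxnc1, the plexin that binds Sema7a, was near the detection limit, at 6, 13 and 9 counts in the Klf5-KO libraries and 24, 25 and 14 counts in the controls (adjusted p = 0.082, edgeR). Sema3d and Sema6c, both scarce, had log2 fold changes of 1.19 and −0.41 (adjusted p = 0.072 and 0.27, edgeR). Sema3e had no count in any library, and Sema4f, Sema5b and Plxna4 had at most 12 counts in any library. Endothelial markers, which would accompany vascular plexin transcripts, summed to 13.01 to 13.8 CPM over 8 genes in the Klf5-KO libraries and 16.9 to 18.9 CPM in the controls, and 1 of 4 tested markers, Vwf, was lower. Most of that was Esam, while Cdh5 had at most 0.03 CPM in any library. Stromal markers summed to 1.49 to 1.98 CPM over 8 genes in the Klf5-KO libraries and 2.93 to 4.07 CPM in the controls. Of 4 tested, Col1a2, a collagen gene, was higher (log2 fold change 3.86, adjusted p = 7.9e-04, edgeR), and Pdgfrb and Myh11 were lower, while Col3a1 had at most 0.03 CPM in any library. Neural and glial markers summed to 2.93 to 3.70 CPM over 8 genes in the Klf5-KO libraries and 4.88 to 6.58 CPM in the controls, with 2 of 4 tested, Tubb3 and Ret, lower and Sox10 at most at 0.03 CPM. None of these sums, the endothelial one included, overlapped between the groups. The part of these cell types in scarce genes such as Sema3a was not tested.

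**Figure D4:**
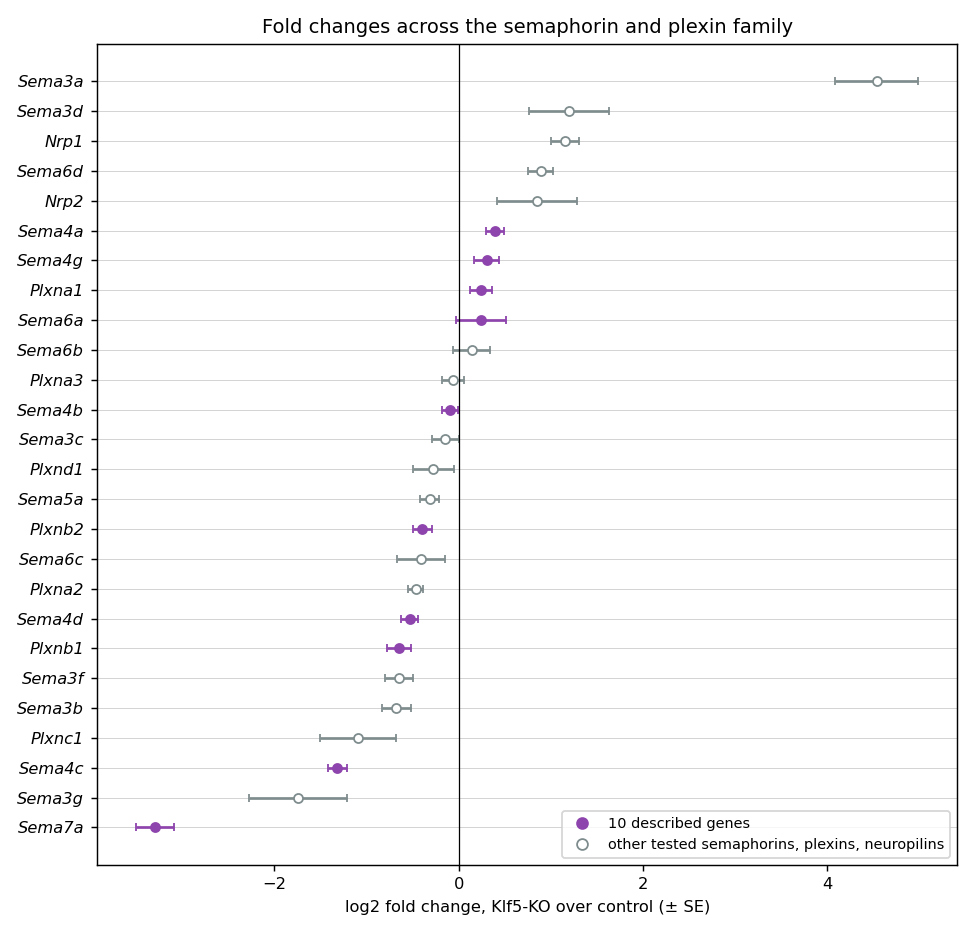
Log2 fold change of Klf5-KO over control, with its SE, for 26 tested genes of the family; filled points are the 10 described genes and open points the others. Sema7a is lowest at −3.30 and Sema3a highest at 4.54. Plxnb3 is left out because its fitted value against libraries at 0 is no measure of size.

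Binding partners and cytoplasmic effectors of the family were read from a list of 53 genes, of which 46 were tested. Of these, 11 were higher and 8 lower in the Klf5-KO libraries (adjusted p under 0.05, edgeR), with a median log2 fold change of 0.00, where 13.3% of all tested genes were higher and 12.5% lower. Among 10 tested binding partners, 2 were higher and 3 lower. The integrin chains that bind Sema7a were the 2 that were higher. Itga1 stood at 186, 151 and 180 CPM in the Klf5-KO libraries, against 51.5, 49.3 and 45.0 CPM in the controls (log2 fold change 1.83, adjusted p = 9.0e-06, edgeR), and Itgb1 at 187, 194 and 190 CPM in the Klf5-KO libraries against 141, 157 and 128 CPM in the controls (log2 fold change 0.42, adjusted p = 0.010, edgeR). Ligand and integrin chain thus differed between the groups in opposite directions, which is a comparison of transcripts only. Itga1 shares 3.68% of its exon bases with Gm49395, and Mical2, described below, shares 2.15% with an unnamed gene, so that reads there could go uncounted.

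The 3 partners that were lower were Mst1r, Vasp and Erbb2. Mst1r encodes the receptor tyrosine kinase Ron, a partner of class B plexins, and stood at 18.4, 15.8 and 16.7 CPM in the Klf5-KO libraries, against 52.4, 46.0 and 58.6 CPM in the controls (log2 fold change −1.62, adjusted p = 2.7e-05, edgeR). For Erbb2, another receptor tyrosine kinase that associates with Plxnb1, it was −0.55 (adjusted p = 0.0040, edgeR). Vasp, which promotes actin filament growth and is listed as a relative of the Sema6a partner Evl, stood at 88.4 ± 3.5 CPM in the Klf5-KO libraries and 184 ± 9.5 CPM in the controls (log2 fold change −1.06, adjusted p = 4.9e-05, edgeR). Evl itself was not called, at 29.6 ± 0.92 CPM in the Klf5-KO libraries and 32.9 ± 2.6 CPM in the controls (log2 fold change −0.15, adjusted p = 0.24, edgeR). Met, a further plexin-associated receptor tyrosine kinase, and Abl1, a kinase that binds Sema6d and has the highest mean CPM of the partner genes over all 6 libraries, had log2 fold changes of −0.21 and −0.19 (adjusted p = 0.16 and 0.11, edgeR).

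Of 36 tested effectors, 9 were higher and 5 lower, beside the same 13.3% and 12.5% of all tested genes. Mical1 and Mical2, enzymes that oxidize actin and take apart its filaments, were higher. Mical1 stood at 75.5, 69.8 and 68.0 CPM in the Klf5-KO libraries, against 26.2, 19.3 and 26.9 CPM in the controls (log2 fold change 1.56, adjusted p = 6.7e-05, edgeR), and for Mical2 the log2 fold change was 1.15 (adjusted p = 3.3e-04, edgeR). The others called higher, in order of fold, were Fes, Rhod, Fyn, Rnd3, Rock2, Rap1b and Rap1a, kinases and small GTPases, with log2 fold changes of 0.93 down to 0.35. Limk2, a kinase that inactivates cofilin, was lower, at 121 ± 3.8 CPM in the Klf5-KO libraries and 286 ± 17.2 CPM in the controls (log2 fold change −1.24, adjusted p = 2.5e-05, edgeR). For Farp1, an exchange factor for small GTPases, the log2 fold change was −0.95 (adjusted p = 1.6e-04, edgeR). Dpysl5, a phosphoprotein of the collapsin response family, stood at 3.90, 2.07 and 3.19 CPM in the Klf5-KO libraries, against 10.8, 21.9 and 16.5 CPM in the controls (log2 fold change −2.42, adjusted p = 4.9e-04, edgeR). Dpysl2 and Mical3 were the other 2 that were lower. Arhgef11 and Arhgef12, the exchange factors that bind class B plexins, had log2 fold changes of 0.04 and −0.14 (adjusted p = 0.76 and 0.38, edgeR), and Cfl1, the cofilin gene and the effector with the highest mean CPM over all 6 libraries, had one of −0.09 (adjusted p = 0.56, edgeR).

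**Figure D5:**
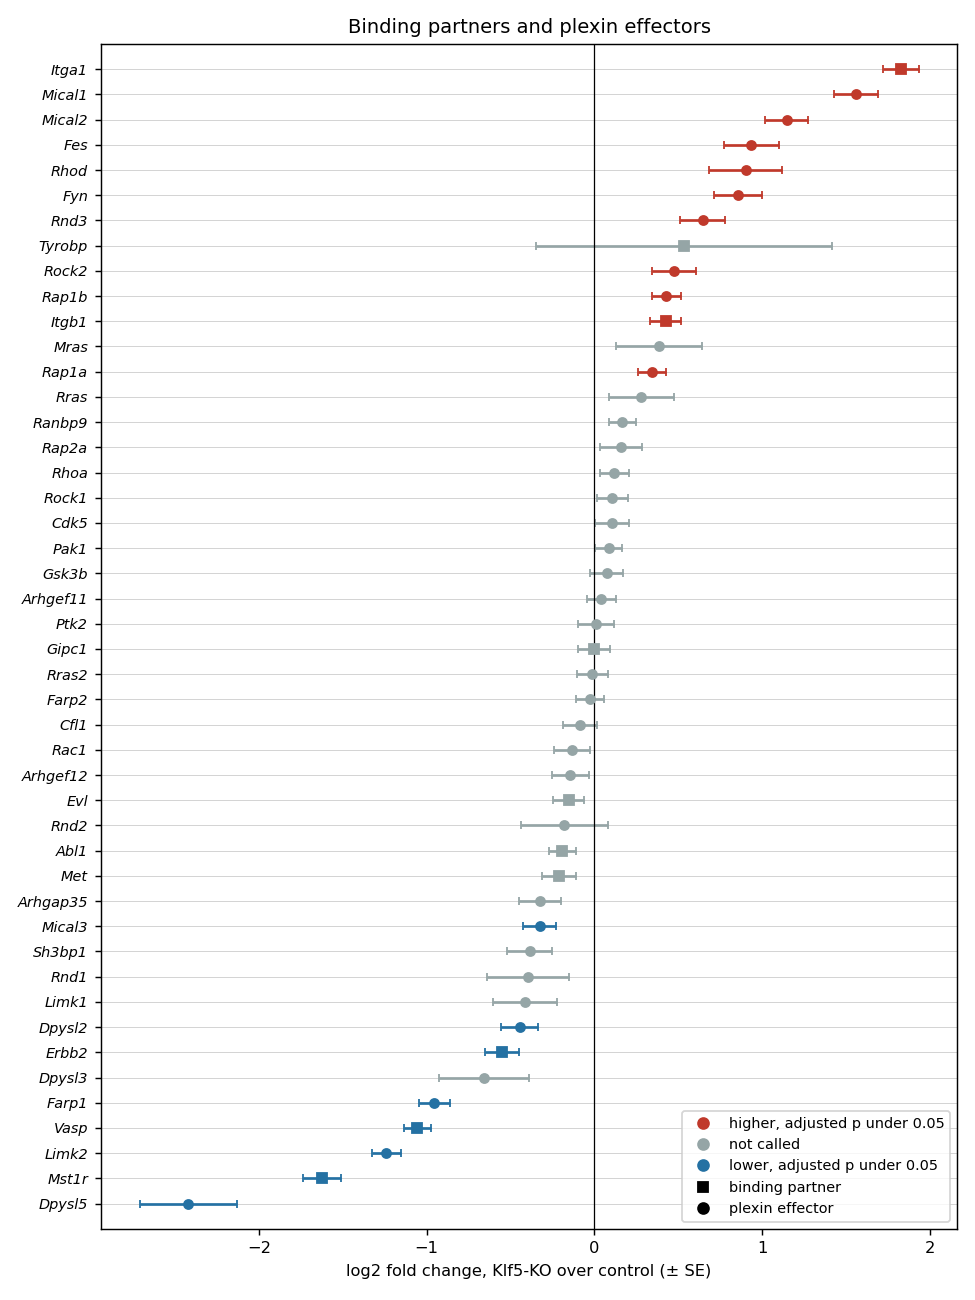
Log2 fold change of Klf5-KO over control, with its SE, for 46 tested binding partners (squares) and plexin effectors (circles). Red genes are higher, blue genes lower and grey genes not called at an adjusted p under 0.05; Itga1 is highest at 1.83 and Dpysl5 lowest at −2.42.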

How the data were processed

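Sorted intestinal stem cells were compared as 3 Klf5-KO and 3 control libraries. The deposited values are raw counts of reads per gene. The submitters' processing notes name the aligner STAR 2.5.2a, the build mm10 and DESeq2 1.18.1. Reads per gene of GENCODE vM16 were counted by the authors in featureCounts 1.4.3-p1, per the file headers, with strand setting 2 and with no option for read pairs or multiply mapped reads, so antisense reads were kept apart and reads over exons shared on 1 strand could go uncounted. The other columns used, exon positions and summed exon length in bases, are also those deposited by the authors.

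Gene names came from GENCODE vM21 and matched 53274 of 53379 IDs. Counts were filtered with filterByExpr, scaled with TMM factors and tested with the quasi-likelihood F test of edgeR 4.0.16 in R 4.3.3 with group as its single term. Benjamini-Hochberg adjustment ran over 19339 genes, with a threshold of 0.05. An SE is the size of the log2 fold change over the square root of F. CPM uses TMM-scaled totals. Floors of 3 counts cover counting error only. The test was checked on counts simulated from the dispersion trend of the fit. These hold no odd library such as control replicate 3, so the check does not cover that case. All 15 library pairs differed by more than sampling noise (lowest chi-square over its degrees of freedom 43.0).

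The members and lists were chosen with earlier results of these data known. Named genes are the 10 members, Klf5, Lgr5, family genes that were called or had a mean of at least 1 CPM, up to 4 called partners and 4 called effectors with the smallest adjusted p, the most abundant of each list, and the genes nearest in profile (log2 of CPM plus 0.5). Other genes were named after their values were seen. Alternatives were RLE and upper-quartile scaling, other filters, DESeq2 1.42.0, limma-voom (limma 3.58.1), robust dispersion, a block for replicate number, no ribosomal RNA-like or mitochondrial genes, a stricter threshold, TPM for the order of levels, and leaving out libraries.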

Additional observations from a re-analysis of the deposited data

How the results depend on the processing

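The signs of the log2 fold changes of Sema7a, Sema4c, Sema4d, Plxnb1, Plxnb2 and Sema4a held in 16 of 16 alternatives each, with Sema7a between −3.44 and −3.09. With each library left out in turn, the 10 genes gave 0 to 2 higher and 4 to 5 lower calls, the rest of the family 3 to 4 higher and 3 to 5 lower, partners and effectors 8 to 12 higher and 6 to 10 lower, and all genes 1605 to 2740 higher and 1467 to 2664 lower. Against 2581 higher and 2413 lower with all libraries, there were 1605 and 1467 without Klf5-KO replicate 1, 1606 lower without Klf5-KO replicate 2, 1526 lower without Klf5-KO replicate 3 and 1689 higher without control replicate 2. In the rest of the family, 3 were lower without Klf5-KO replicate 2, and 3 without Klf5-KO replicate 3. With no low-count filter, 2 of the 10 genes (Sema4a and Sema4g) and 5 of the rest were higher. Without control replicate 3 and Klf5-KO replicate 2 together, 3 of the 10 were higher (Sema4a, Sema4g and Sema6a), and Sema6a ranged from −0.03 to 0.62 in log2 fold change over its alternatives. At an adjusted p under 0.01, 0 of the 10 and 7 partners and effectors were higher, 2 of the rest of the family were lower, and 1226 genes were higher and 1118 lower in all. The causes of these shifts were not tested, apart from the stricter threshold, which can only lower a count. The labels number the replicates, but deviations of same-numbered libraries had correlations of −0.04 to 0.02 and did not pair them. With the replicate block, 2286 genes were higher and 2088 lower; of the 10, 1 was higher and 5 were lower; and Sema5a no longer passed (adjusted p = 0.070). RLE and upper-quartile scaling moved the median of all genes to −0.01 and −0.03. TPM kept the place of 10 of the 10 genes in the control order. With 3 libraries a group, genes near the detection limit, such as Plxnc1, rest on few reads.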
